A study of Danio rerio with 2 samples.

Results

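The genes described here are the patterning homeobox genes that lie outside the Hox clusters, as they were recovered with an RNA-binding protein from zebrafish embryos. They were picked by name alone, as the rows whose Ensembl gene name is, in any letter case, Pax, Irx, Lhx, Nkx, Dlx, Emx, Otx, En or Eng, Meis, Pbx, Msx, Gsx, Gbx, Vax, Vsx, Rx, Isl, Pitx, Cdx, Barhl, Dbx, Tlx or the Six-family stem followed by a digit. This gave 103 of the 33737 rows of the table, under 92 distinct names. Wild-type embryos had been injected with mRNA for a Flag-tagged Cpeb1b protein and were lysed at 16 h post-fertilization (hpf), during the formation of the somites, and RNA held on anti-Flag beads was sequenced. There was a single group of 2 replicates, of which the authors deposited only the mean, in RPKM (reads scaled to the length of the gene model and to the size of the library). The labels do not give the dose of injected mRNA or the number of embryos in each lysate. No SD or test between samples can therefore be given. No input RNA or control precipitate was analysed here, so each value is a level in the precipitate and not an enrichment, and a low level cannot be told apart from few cells with the transcript or little transcript in each cell.

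Homeobox genes encode transcription factors that bind DNA through a homeodomain, and those outside the Hox clusters divide the embryo into territories. Otx, Emx, Rx, Vax, Vsx and several Six-family genes act in the forebrain and eye, Engrailed and Pax2/5/8 genes at the midbrain and its boundary with the hindbrain, and Six4, Dlx3 and Pitx genes in the placodes, the thickenings of head ectoderm that form ear, nose, lens, pituitary and sensory ganglia. Cdx genes act in the posterior body, while Meis and Pbx proteins are partners of Hox proteins. Cpeb1b belongs to a family that binds elements in the 3′ ends of mRNAs and regulates their poly(A) tails and translation.

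The 103 rows ran from 0 to 28.35 RPKM with a median of 1.49 RPKM (interquartile range 0.621 to 3.60 RPKM). Of them 62 (60.2%) stood at RPKM 1 or more, the level taken here as detected, against a background of 38.6% of all rows, 46.8% of the rows with a gene name and 53.5% of the rows whose name matches a protein-coding RefSeq gene. The Wilson 95% interval of the members' share was 50.5% to 69.1%, which includes the last of these backgrounds. That interval takes rows as independent draws, though 48 of them are paired under a shared name once paralogue suffixes are removed. It is therefore not a test against any of these backgrounds. At RPKM 10 or more stood 9 members (8.74%), beside 7.79% of all named rows, and 18 stood at 5 or more. The shares at or above RPKM 5.01 were 17.5% of members and 16.0% of all named rows. None was in the top 1% of all rows, and 12 (11.7% of members) were in the top 10%. The members together held 0.0967% of the summed RPKM of the named rows, and their 10 highest rows held 47.7% of the members' own sum. A single named row held 182928 of the 350250 RPKM summed over named rows. The members' share of that sum therefore depends strongly on this row. The members' median of 1.49 RPKM stood beside 0.507 RPKM for all rows and 0.854 RPKM for named rows. For rows whose name matches a protein-coding RefSeq gene the median was 1.17 RPKM. Members were thus spread over the ordinary range of named genes. Their median was above that of all named rows and closer to that of protein-coding RefSeq names. Their shares at the higher thresholds were near those of all named rows.

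The depth behind these values was read from the smallest steps in the table, which fit library sizes of 6576775 and 6551358 reads on the assumption that the authors took an unweighted mean over the replicates. A gene at RPKM 1 would then have had some 13.1 reads per kilobase in the pair of libraries. The 95% Poisson interval given for a level below is that of a 1 kb gene model at this depth and covers counting error only; copies made by PCR were not told apart. On that interval 48 members lay wholly above RPKM 1 and 17 wholly below it, while for 38 the interval included the threshold. The members nearest to it were PAX8 (1.06 RPKM) and rx3 (1.08 RPKM) inside, and LHX6 (ENSDARG00000052165, 0.993 RPKM) and tlx2 (0.971 RPKM) outside. Of the 102 pairs of neighbours in the order of levels, only MEIS1 over IRX3 had intervals that did not overlap, so the order of adjacent genes is otherwise not resolved by counting. All 14 rows of a short list of neural, epidermal, muscle, notochord, yolk-layer and blood or vessel markers were detected, from 1.12 RPKM (gata1a) to 319 RPKM (krt4). The list spans tissues of a whole embryo and holds no gene expected to be absent, so it does not test the label.

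**Figure D1:**
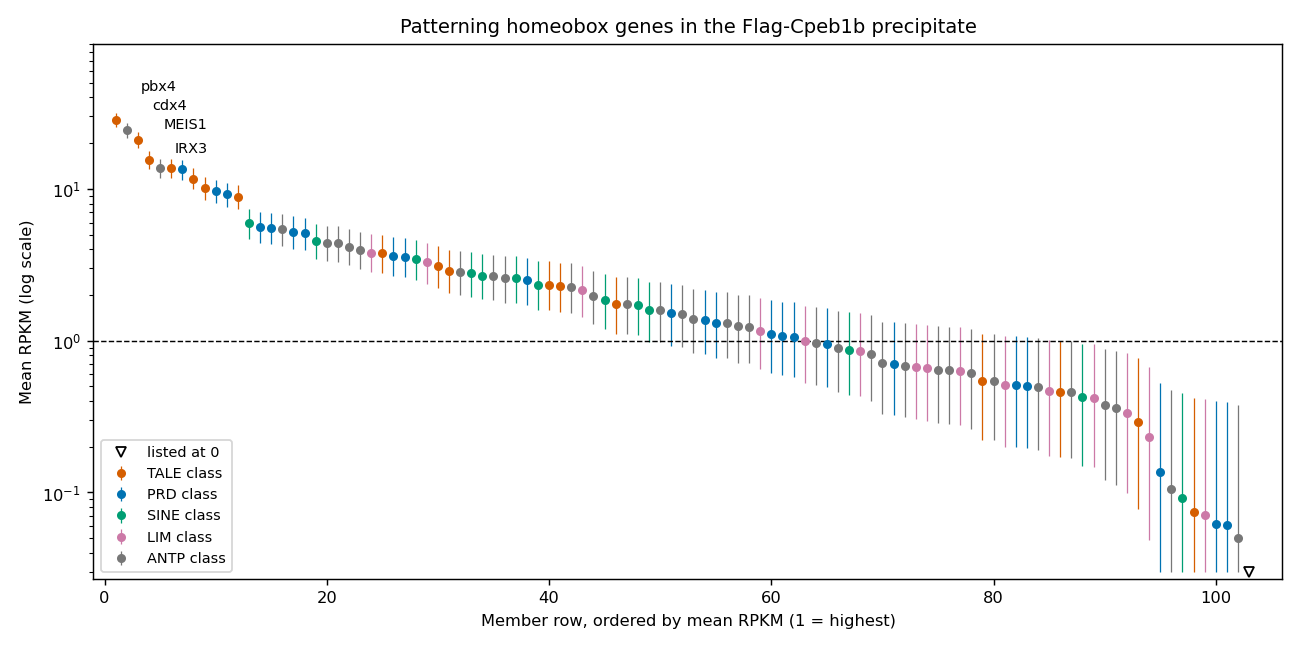
Mean RPKM (log axis) of the 103 member rows in order of level, colored by homeobox class, with vertical lines for the 95% Poisson interval of a 1 kb gene model (cut off at the bottom of the axis) and a dashed line at RPKM 1. The triangle is lhx8b, listed at 0; pbx4, cdx4, MEIS1 and IRX3 stand highest, between 15.5 and 28.35 RPKM, and TALE rows make up 6 of the 10 highest.

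The highest member was pbx4 at 28.35 RPKM (interval 25.5 to 31.4 RPKM), rank 839 of all rows. It encodes the main early Pbx protein of the zebrafish embryo, a partner of Hox and Meis proteins in the hindbrain. The remaining Pbx rows were far lower, with pbx2 at 2.89 RPKM, PBX3 at 1.75 RPKM and pbx3a at 0.0744 RPKM. The last of these corresponds to about 0.977 reads per kilobase. All 4 Meis rows, which encode the proteins that join Pbx and Hox on DNA, were detected. MEIS1 had 20.98 RPKM, meis2b 10.1 RPKM, meis3 8.90 RPKM and meis1a 3.11 RPKM. MEIS1 is taken to be meis1b, since that is the RefSeq gene of this name left once meis1a has its own row.

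Pbx, Meis and Irx genes belong to the TALE class, whose homeodomain has an extra loop of amino acids. Tgif and Pknox genes, also of this class, lie outside the naming rule and are given below. The 17 TALE rows among the members included 13 detected ones (76.5%, beside 46.8% of all named rows). Of the 17, 6 stood at RPKM 10 or more, and the median was 3.11 RPKM. These TALE rows held 37.4% of the summed RPKM of all members while being 16.5% of the rows. Iroquois (Irx) genes, which act early in the neural plate and in proneural territories, had 6 of 9 rows detected (66.7%). IRX3 had 15.5 RPKM, IRX1 13.6 RPKM and irx7 11.7 RPKM. IRX5 at 3.75 RPKM, irx5b at 2.34 RPKM and IRX4 at 2.28 RPKM followed. IRX2 (0.544 RPKM), irx4b (0.461 RPKM) and IRX6 (0.293 RPKM) lay under the threshold. The Iroquois rows thus split into 3 above RPKM 10 and 6 below 4. The names IRX3 and IRX1 each fit a pair of zebrafish genes in RefSeq and were not assigned to one of them.

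For genes of the midbrain and of its boundary with the hindbrain, the source of Wnt and Fgf signals for both sides, every row was detected. These were 8 of 8 rows, beside 46.8% of all named rows, with a median of 3.08 RPKM. A pair of rows carry the name EN2, which encodes an Engrailed repressor of this territory, and they had 13.6 RPKM (ENSDARG00000038868) and 4.41 RPKM (ENSDARG00000026599). A pair carry PAX2, the paired-box gene that starts the boundary program, at 13.4 RPKM (ENSDARG00000032578) and 5.20 RPKM (ENSDARG00000028148). EN1 had 1.75 RPKM, the later-acting PAX5 1.52 RPKM, PAX7, a gene of the dorsal midbrain and of muscle precursors, 1.31 RPKM, and GBX2, which acts on the hindbrain side of the boundary, 1.24 RPKM. EN2 and PAX2 were therefore the high rows of this territory, and the other 4 rows lay between 1.24 and 1.75 RPKM. The names EN1 and PAX7 each fit a pair of RefSeq genes on a single row, so not every gene of this list has its own row. The counting intervals of PAX5, PAX7 and GBX2 began at 0.928, 0.769 and 0.710 RPKM. On the 1 kb gene model these rows were therefore not distinguishable from RPKM 1. Of 8 rows of genes that mark the same territory and are not members, 5 were detected. WNT1 had 2.61 RPKM, her5 3.23 RPKM, CNPY1 2.58 RPKM and the FGF8 rows 4.12 and 0.0656 RPKM. LMX1B had 0.822 RPKM and the 2 rows of DMBX1 had 1.42 and 0.958 RPKM.

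Genes of the forebrain and eye were the most numerous, with 32 rows, of which 15 were detected (46.9%, beside 46.8% of all named rows), and their median was 0.969 RPKM. The head-specifying genes otx2a and OTX2 led with 9.19 and 5.53 RPKM, while OTX1 had 0.0606 RPKM, less than 1 read per kilobase. VSX1, a gene of the retina, had 3.63 RPKM. In the telencephalon list emx3 had 4.37 RPKM, EMX2 2.84 RPKM and EMX1 0.494 RPKM. PAX6, which is needed for eye development in vertebrates, had 3.57 RPKM. The 2 rows of SIX3, an eye-field and anterior forebrain gene, had 2.77 and 2.34 RPKM, and those of SIX6 had 1.86 and 0.425 RPKM. VAX1 and VAX2 of the ventral forebrain and eye had 2.65 and 1.25 RPKM. The retinal homeobox genes lay at the threshold: rx1 at 1.11 RPKM, rx3 at 1.08 RPKM and rx2 at 0.946 RPKM, with six7 at 0.871 RPKM. At this depth and on the 1 kb gene model, these last 4 were not distinguishable from each other or from RPKM 1.

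Genes of the ventral telencephalon and its interneurons, grouped after their values were seen, were among the undetected forebrain rows. DLX1 had 0.817 RPKM, the DLX2 rows 0.896 and 0.0502 RPKM, and GSX2 0.359 RPKM. The LHX6 rows had 0.993 and 0.511 RPKM, LHX8 had 0.0713 RPKM, and lhx8b was the only member listed at 0. Of the other diencephalic and eye rows, LHX9 had 0.675 RPKM, lhx5 0.635 RPKM, pax10 0.502 RPKM and lhx2a 0.335 RPKM. Other genes outside the rule that act in the forebrain were detected in 5 of 5 rows, with the Wnt-pathway repressor TCF7L1 at 13.0 RPKM, ZIC1 at 5.66 RPKM and FEZF2 at 1.95 RPKM among them.

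In the hindbrain and spinal cord list 12 of 22 rows were detected, with a median of 1.34 RPKM. That is 54.5%, beside 46.8% of all named rows and 53.5% of rows with a protein-coding RefSeq name. PAX3, which acts in the dorsal neural tube, neural crest and somite, was highest, with rows at 9.68 RPKM (ENSDARG00000010192) and 1.37 RPKM (ENSDARG00000028348). The dorsal gene msx1b had 5.40 RPKM and msx3 2.25 RPKM. GSX1, which patterns dorsal progenitors, had 3.98 RPKM, the progenitor rows named DBX1 1.58 and 1.39 RPKM, GBX1 1.96 RPKM and the ventral gene nkx2.9 1.31 RPKM. Genes of early neurons had detected and undetected copies. The LIM gene lhx1a had 3.80 RPKM, and lhx1b had 0.662 RPKM. The ISL2 rows had 3.28 and 0.468 RPKM, and ISL1, a marker of the first motor and sensory neurons, had 2.15 RPKM against 0.421 RPKM for isl1b. LHX3 and LHX4, which specify motor neurons, had 0.859 and 0.232 RPKM, and the sensory-neuron genes tlx2, TLX3 and TLX1 had 0.971, 0.608 and 0.377 RPKM. BARHL1 (0.684 RPKM) and barhl1a (0.544 RPKM) were also below the threshold. Of 7 rows of other hindbrain and cord regulators 5 reached RPKM 1, among them EGR2 (3.60 RPKM), which sets up hindbrain segments.

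Placode genes were detected in 9 of 12 rows (75.0%, beside 46.8% of all named rows), with a median of 2.11 RPKM. The highest was six4a at 5.94 RPKM. DLX3 had 4.16 RPKM; it is dlx3b in RefSeq and acts in ear and nose placodes. DLX5 had 2.58 RPKM, the lens and pituitary gene pitx3 2.51 RPKM, six4b 1.58 RPKM and the otic gene PAX8 1.06 RPKM. The undetected rows were dlx4b (0.708 RPKM), dlx4a (0.638 RPKM) and DLX6 (0.460 RPKM). The 4 Eya genes, partners of Six-family proteins, were all detected, with eya2 at 6.49 RPKM, EYA1 at 4.40 RPKM, eya3 at 3.04 RPKM and EYA4 at 2.42 RPKM, and TFAP2A and GATA3, which also act in the preplacodal ectoderm, had 11.6 and 5.02 RPKM.

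Only 2 member rows belong to the tail list, and they lay far apart. The caudal gene cdx4, which sets posterior Hox expression and posterior growth, had 24.4 RPKM (interval 21.8 to 27.2 RPKM), rank 962 of all rows and second among the members. The posterior neural gene nkx1.2la had 0.643 RPKM (interval 0.285 to 1.24 RPKM), rank 75 of the 103 members. Of 7 rows of other posterior regulators 5 were detected: SALL4 had 23.6 RPKM, noto 13.7 RPKM, tbx16 6.05 RPKM, MNX1 4.60 RPKM and WNT3A 1.53 RPKM, and the WNT8A rows had 0.753 RPKM and 0. The list of mesoderm, pharyngeal arch and endoderm genes had 3 of 8 rows detected (37.5%, beside 46.8% of all named rows) and a median of 0.604 RPKM. These were SIX2 (4.55 RPKM) and six2b (2.69 RPKM), which act in head mesenchyme, and the heart gene nkx2.7 (1.49 RPKM). PAX9 (0.511 RPKM), the PAX1 rows (0.698 and 0.136 RPKM), nkx3.3 (0.106 RPKM) and pax4 (0.0620 RPKM) were under the threshold. Of the 2 members without a region in the list, six5 had 3.45 RPKM and six9 0.0913 RPKM.

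Set side by side, the medians were 3.11 RPKM for the TALE class, 3.08 RPKM for the midbrain and its boundary, 2.11 RPKM for placode, 1.34 RPKM for hindbrain and spinal cord, 0.969 RPKM for forebrain and eye and 0.604 RPKM for mesoderm, arch and endoderm. The tail list has too few rows for a median to be read. The place of the midbrain rests on few rows: its median was 1.63 RPKM with the highest row of each symbol, below placode at 2.51 RPKM in that setting, and 1.75 RPKM without its highest EN2 row. Genes are not replicates of a region, the numbers of cells in the regions were not measured, and no test of this order was made. The ranges overlapped: every list but the tail and the midbrain had rows from under 0.5 to above 4 RPKM. The placement follows textbook expression and many members act in several regions. When each gene was entered in every region given for it, 26 of 47 rows were detected for forebrain and eye (55.3%), 25 of 32 for the midbrain (78.1%), 28 of 43 for hindbrain and spinal cord (65.1%), 12 of 20 for placode (60.0%) and 16 of 28 for mesoderm, arch and endoderm (57.1%). In that setting hindbrain and spinal cord stood above placode, and mesoderm, arch and endoderm above forebrain and eye, the reverse of the order with 1 region a gene. It added all 17 TALE rows to the midbrain list and to the hindbrain and spinal cord list, and none to placode. Whether hindbrain and spinal cord would stand above placode without the TALE rows was not tested. The median was then 2.61 RPKM for the midbrain, 1.75 RPKM for hindbrain and spinal cord, 1.65 RPKM for placode, 1.43 RPKM for mesoderm, arch and endoderm and 1.16 RPKM for forebrain and eye.

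**Figure D2:**
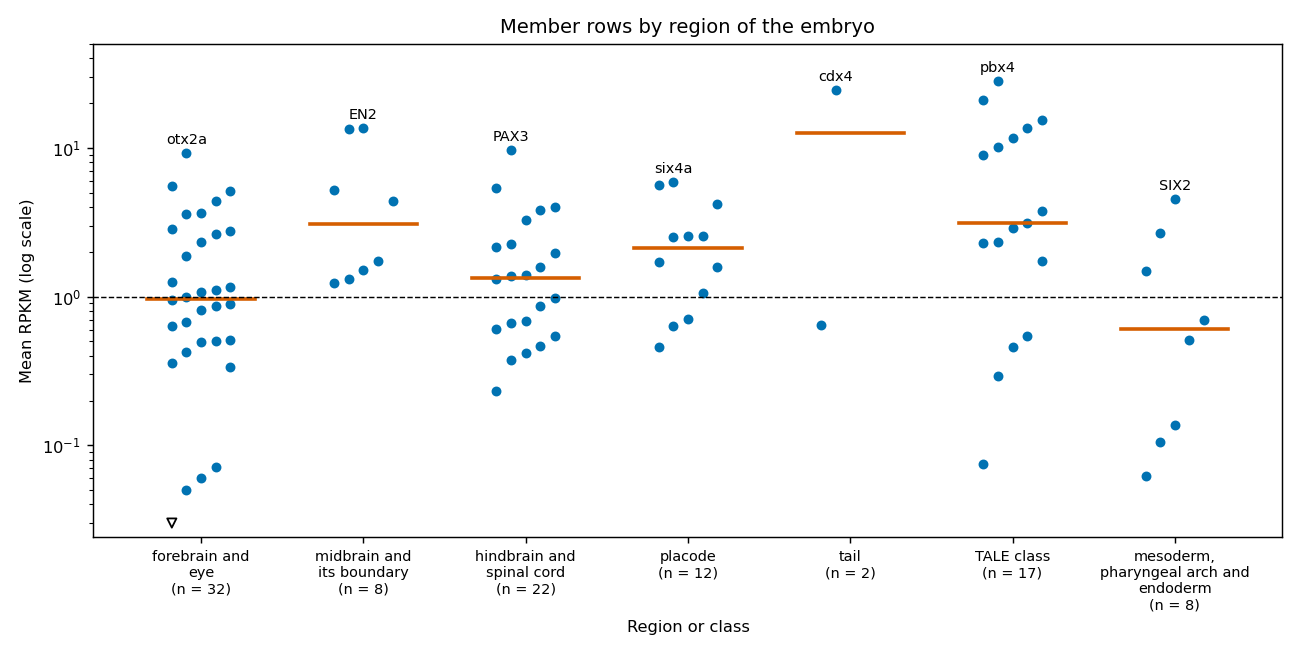
Mean RPKM (log axis) of each member row by the region in which its gene mainly acts, with Meis, Pbx and Irx rows shown apart as the TALE class; orange bars are medians, the dashed line is RPKM 1 and the triangle is a row listed at 0. All 8 midbrain rows stand above the line, though the counting intervals of PAX5, PAX7 and GBX2 reach under it. Of 32 forebrain and eye rows 15 stand above it (46.9%, beside 46.8% of all named rows). With every region given, the midbrain list takes in the 17 TALE rows and has 25 of 32 rows above the line. In the tail cdx4 stands alone at 24.4 RPKM.

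Homeobox class is given by the members' names, and the choice of regions did not use it except for TALE. The Six-family genes (SINE class) had 10 of 13 rows detected (76.9%, beside 46.8% of all named rows). Their median was 2.34 RPKM, and none stood above six4a at 5.94 RPKM. Paired-type genes (Pax, Otx, Pitx, Rx and Vsx) had 16 of 23 rows detected (69.6%) with a median of 1.37 RPKM. Some Pax proteins keep only the paired domain. Antennapedia-type genes (the Dlx, Emx, En, Msx, Nkx, Cdx and like families) reached the threshold in 19 of 34 rows (55.9%). That is near the 53.5% of rows with a protein-coding RefSeq name. The median of these Antennapedia-type rows was 1.28 RPKM. LIM-type genes (Lhx and Isl), several of which specify classes of neurons, reached it in 4 of 16 rows, and their median was 0.648 RPKM. The 4 were lhx1a, ISL2, ISL1 and LHX2, the last at 1.16 RPKM. The Ldb cofactors that LIM homeodomain proteins need were detected in 3 of 3 rows, with LDB1 at 7.59 RPKM and the LDB2 rows at 2.05 and 1.80 RPKM.

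Zebrafish keep duplicates of many developmental genes, and 24 names, once the paralogue suffix is removed, stood on a pair of rows each. Both rows were detected for 11 names, 1 row for 7 and neither for 6. Over all members 60.2% of rows were detected, beside 46.8% of all named rows. These counts are not read as particular to duplicated genes. For the 20 names whose lower row had at least 3 reads per kilobase, the higher row stood 1.11 to 7.05 times above the lower, with a median of 2.84. The ratio was 2 or more for 11 names, and for 10 of these the counting intervals did not overlap. Arbitrary pairs of members were not compared, and all members had an interquartile range of 0.621 to 3.60 RPKM. Ratios of this size are therefore not shown to be particular to copies. PAX3 and ISL2 had the widest ratios, 7.05 and 7.02, followed by meis1 (6.74), lhx1 (5.74) and isl1 (5.11). At the other end, dlx4 (1.11), DBX1 (1.14) and SIX3 (1.18) had rows with overlapping intervals. OTX2 was the one name under a ratio of 2 (1.66) with intervals apart, otx2a being higher. Rows with the same capital name were not assigned to an a or b copy, and how reads that fit both copies were counted is not given in the sources used here, so these ratios are uncertain where copies are alike.

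**Figure D3:**
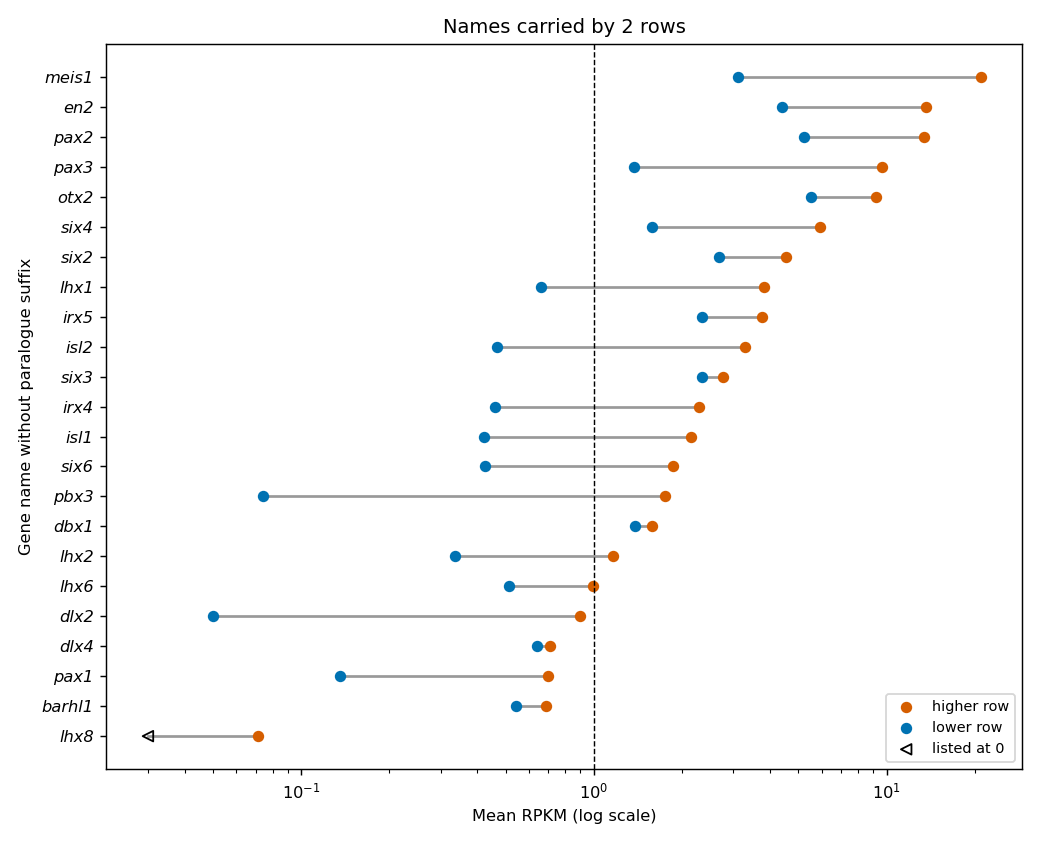
Mean RPKM (log axis) of the higher (orange) and lower (blue) row of each name reported here that stands on a pair of rows, ordered by the higher row; the dashed line is RPKM 1 and the triangle is lhx8b, listed at 0. The meis1, pax3, lhx1 and isl2 pairs lie far apart, and the six3, dbx1 and dlx4 pairs nearly coincide.

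Several members are neighbours in the genome. Of 20 pairs of adjacent protein-coding members in the RefSeq table (assembly GRCz12tu, used only for names and neighbourhood), 6 had both names on a single row each. In the paired Dlx clusters DLX3 stood 5.88 times above dlx4b, and DLX5 stood 5.60 times above DLX6 (2.58 against 0.460 RPKM). In the Iroquois clusters IRX5 had 3.75 RPKM beside 0.293 RPKM for IRX6, and IRX4 had 2.28 RPKM beside 0.544 RPKM for IRX2. The pair six5 and six9 had 3.45 and 0.0913 RPKM, and PAX9 and nkx2.9 had 0.511 and 1.31 RPKM. The counting intervals did not overlap in 5 of the 6 pairs. They overlapped for PAX9 and nkx2.9. Arbitrary pairs of members were not compared in this way. All members had an interquartile range of 0.621 to 3.60 RPKM, so such differences are not shown to be particular to neighbours.

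Beside other families of developmental transcription factors, the members' detected share of 60.2% lay between the forkhead genes (30 of 57 rows, 52.6%, median 1.29 RPKM) and the Sox genes (18 of 24 rows, 75.0%, median 3.22 RPKM). The Hox genes stood higher on both measures, with 35 of 38 rows detected (92.1%) and a median of 5.14 RPKM against 1.49 RPKM. The highest row was 43.8 RPKM among Hox genes, 30.3 RPKM among Sox genes and 17.3 RPKM among forkhead genes. These are descriptions of a single mean table, and no test of the difference was made.

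**Figure D4:**
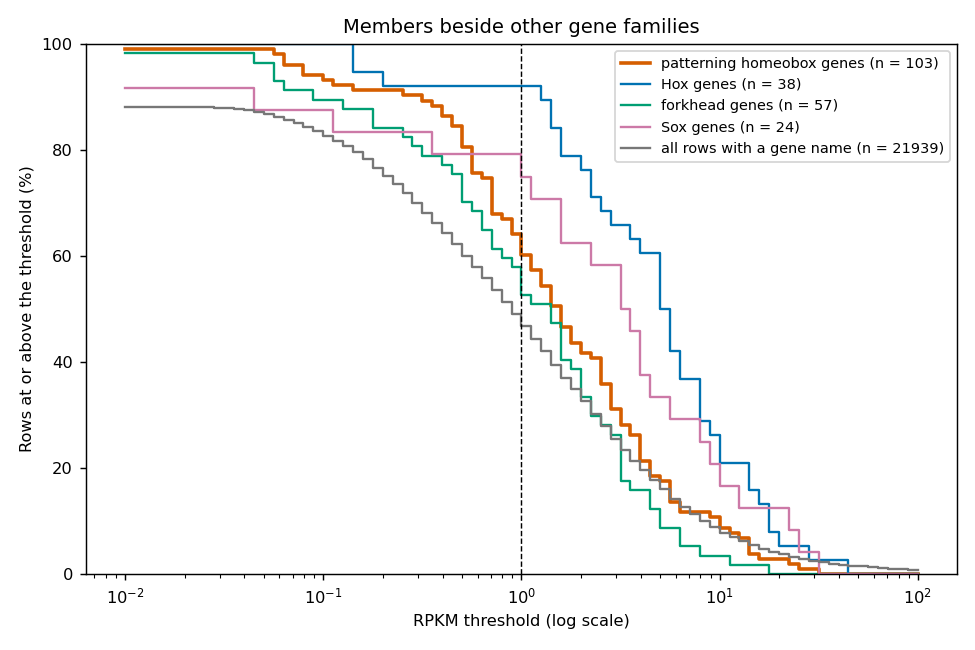
Share of rows (%) at or above each RPKM threshold (log axis) for the 103 members, 38 Hox, 57 forkhead and 24 Sox rows and the 21939 rows with a gene name; the dashed line is RPKM 1. At that line the members stand at 60.2%, between forkhead (52.6%) and Sox genes (75.0%) and below Hox genes (92.1%).

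Over all 44 rows of partner and regional genes outside the rule, 35 reached the threshold (79.5%, beside 46.8% of all named rows). The median was 2.78 RPKM, and 8 of the 48 listed names had no row under that name. Some partners of the TALE members are themselves of that class. Of these, TGIF1, a repressor, had 13.1 RPKM, PKNOX2 1.52 RPKM and the PKNOX1 rows 0.462 and 0.261 RPKM. The TLE3 rows, which encode Groucho corepressors used by Engrailed, Six-family and other members, had 6.35 and 2.95 RPKM. The naming rule leaves out 9 Nkx rows whose names carry a hyphen. Of these, NKX6-1, a ventral neural tube and pancreas gene, had 6.06 RPKM and NKX3-2, a gene of the sclerotome and jaw, 5.15 RPKM. NKX2-4 and NKX2-5 had 1.31 and 1.15 RPKM, and NKX2-2, NKX2-1, NKX2-3 and NKX6-3 lay between 0.0884 and 0.961 RPKM. Of 131 protein-coding member genes in RefSeq, 23 matched no row by the rule. For 9 of these a hyphenated Nkx row carries the name once any paralogue suffix is removed. NKX2-2 and NKX2-4 each stand for a pair of these genes. The other 14, among them cdx1a, cdx1b, pbx1a, pbx1b and pitx1, were not analysed here. The names IRX3, IRX1, EN1, PAX6, PAX7 and TLX3 each stand on a single row but fit a pair of RefSeq genes. Both genes of such a pair were counted as matched, so further genes lack a row of their own.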

How the data were processed

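RNA precipitated with Flag-Cpeb1b from 16 hpf zebrafish embryos was measured in 2 replicates. The authors deposited 1 RPKM value per gene, averaged over the replicates according to the name of the table. Per the submitters' processing notes, the build was Zv9 and the tools were TopHat2 2.1.1, Bowtie, bedtools 2.16.2, MACS2 2.0.10, Trimmomatic 0.36, cutadapt 1.13 and FastQC; the role of each, the annotation, gene lengths, strand and multiply aligned reads are not recorded there.

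Names came from a table of Ensembl identifiers (21939 of 33737 rows named). RPKM 1 was the detection threshold. Depth was taken from 171 rows that shared one of 32 values between 0.4 and 2 RPKM: steps giving whole lengths within 0.002 fitted 135 rows. On 3000 simulated rows of a pair of libraries the search returned both depths to within 8.73e-06%. This checks the search alone and cannot show that the deposited values follow the assumed unweighted mean. Wilson and Poisson intervals (95%) were computed with scipy 1.17.1 and statsmodels 0.14.6 in Python 3.11.15. With 1 mean per gene no test was run.

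Members, regions and lists were chosen with earlier results of these data known. Named genes were the 4 highest rows of each region, textbook regulators, members at 0 and neighbours; further members are named to account for the rest, and a few genes that the rules name are not reported here. Alternatives changed threshold, summary, rows per symbol and region assignment.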

Additional observations from a re-analysis of the deposited data

How the results depend on the processing

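At a threshold of RPKM 0.1 there were 96 detected member rows (93.2%, beside 82.6% of all named rows). At RPKM 5 there were 18, against 62 at RPKM 1. The shares at or above RPKM 5.01 were 17.5% of members and 16.0% of all named rows. By region, RPKM 0.1 gave 28 of 32 for forebrain and eye, 8 of 8 for midbrain and 22 of 22 for hindbrain and spinal cord. It gave 12 of 12 for placode, 2 of 2 for tail, 16 of 17 for TALE and 7 of 8 for mesoderm, arch and endoderm. The midbrain was thus not alone in having every row at this level. RPKM 5 gave 3 of 32 for forebrain and eye, 3 of 8 for midbrain and 2 of 22 for hindbrain and spinal cord. It gave 2 of 12 for placode, 1 of 2 for tail, 7 of 17 for TALE and 0 of 8 for mesoderm, arch and endoderm. With every region given for a gene, the lists grew as well, and the detected counts were 26 of 47 for forebrain and eye (15 of 32 in the primary region alone), 25 of 32 for midbrain (8 of 8), 28 of 43 for hindbrain and spinal cord (12 of 22), 12 of 20 for placode (9 of 12), 3 of 4 for tail (1 of 2) and 16 of 28 for mesoderm, arch and endoderm (3 of 8). Over rows at RPKM 1 or more alone, the median was 2.87 RPKM for all members (1.49 RPKM over every row), 2.77 RPKM for forebrain and eye (0.969 RPKM), 8.90 RPKM for the TALE class (3.11 RPKM), 2.69 RPKM for mesoderm, arch and endoderm (0.604 RPKM) and 2.20 RPKM for hindbrain and spinal cord (1.34 RPKM), since that filter removes low rows. With every region given, the mesoderm, arch and endoderm median was 1.43 RPKM, above forebrain and eye at 1.16 RPKM. All 17 TALE rows then entered the midbrain list and the hindbrain and spinal cord list, and none entered placode. Further settings were geometric means with a pseudocount of 1 or 0.1, the highest row per symbol and removal of the highest row. Outside the tail, each median stayed within the 95% binomial interval of its main value. That interval takes genes as independent draws and is wide for short lists. The midbrain median moved from 3.08 to 1.63 RPKM with the highest row per symbol and to 1.75 RPKM without its highest row. The tail median moved from 12.5 to 0.643 RPKM without cdx4. With 2 rows, the tail interval is only the range of the rows and cannot serve as a check. Depth limits the 38 members whose counting interval includes RPKM 1. No paired analysis was possible because there is 1 group, and no replicate could be left out of a deposited mean.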
